A study of Mus musculus with 10 samples.

Results

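The mitochondrial ribosome is built from RNA and protein of separate origin, and 79 of its genes were followed among the 47729 genes of the deposited table. Members were chosen by gene symbol: the mitochondrial rRNA genes mt-Rnr1 and mt-Rnr2, 48 large-subunit proteins whose symbols start with Mrpl, and 29 small-subunit proteins whose symbols start with Mrps. All 79 passed the filter on low values and were among the 12395 genes tested.

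Liver RNA came from 5 knockout (KO) and 5 wild-type (WT) samples of female mice, 1 library each. KO mice are labelled as carrying a knockout of Etnppl, which encodes the ethanolamine-phosphate phospho-lyase, in the whole body, and WT mice carried the intact gene. Both genotypes were kept on chow for 8 weeks, followed by 10 weeks on a high-fat diet that drew 45% of its calories from fat. Strain, age and the way the gene was deleted were not given in the sources used here. Nor is it stated that samples and animals correspond 1 to 1, so the p-values cover the spread among samples, which may be technical in part.

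Mitochondrial ribosomes translate the few mRNAs of the mitochondrial genome, which encode core subunits of the respiratory chain and the ATP synthase. Their 12S rRNA, at the decoding centre of the small subunit, and their 16S rRNA, which forms the peptidyl transferase centre of the large subunit, are transcribed from mitochondrial DNA. Every ribosomal protein is encoded in the nucleus, translated in the cytosol and imported. The mammalian particle is rich in protein, and many of its proteins have no bacterial counterpart.

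The values are FPKM, fragments scaled by transcript length and by library size, so levels can be set side by side between genes. The steps between low values placed the libraries at about 21000000 to 28200000 fragments. Etnppl lay between 7.36 and 10.19 FPKM in KO livers, against 27.57 to 56.55 FPKM in WT livers, and was lower in every KO library. KO livers thus kept a measurable gene-level value, and which exons were deleted is not stated, so the check shows a lower level and not the absence of the gene. All 8 hepatocyte markers were present, with a summed level of 64340 to 75600 FPKM in KO and 56820 to 68660 FPKM in WT, and the 5 adipose markers summed to at most 0.66 FPKM. KO replicate 3 stood apart, with 109.2 FPKM summed over 6 pancreas markers against at most 3.19 FPKM in any WT library, and the rRNA results are given with and without it. RNA was selected by poly(A). The selection keeps rRNA molecules only where they carry an A tail or A-rich stretches, so the rRNA values are not the rRNA content of the tissue.

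Both rRNA genes lie on the plus strand of the mitochondrial chromosome, mt-Rnr1 (ENSMUSG00000064337) at chrM:70-1024 and mt-Rnr2 (ENSMUSG00000064339) at chrM:1094-2675 (GRCm38). Their last 60 bases are shown because the short A tails of these RNAs are added there. They are taken from the GENCODE M21 transcripts, 5′ to 3′, with runs of 4 or more A in capitals.
mt-Rnr1: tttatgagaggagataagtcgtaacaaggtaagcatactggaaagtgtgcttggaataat
mt-Rnr2: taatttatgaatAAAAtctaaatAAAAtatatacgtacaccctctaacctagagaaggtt
The end of mt-Rnr1 holds no such run and the end of mt-Rnr2 holds 2. Over the whole transcripts, of 955 and 1582 bases, there were 13 runs in mt-Rnr1 and 26 in mt-Rnr2, and the longest had 5 and 7 A. Adenine made up 37.8% of mt-Rnr1 and 38.2% of mt-Rnr2, the highest shares among the 11 transcripts of the mitochondrial genome that were tested.

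mt-Rnr1, the 12S rRNA of the small subunit, was lower in KO livers. Its level was 1092.33, 1064.93, 1147.24, 948.65 and 1282.15 FPKM in KO replicates 1 to 5, against 1587.76, 1494.17, 1719.25, 1714.24 and 1712.19 FPKM in WT replicates 1 to 5. The highest KO library lay below the lowest WT library. The mean was 1107 ± 122 FPKM in KO and 1646 ± 101 FPKM in WT (SD, n = 5 each), so KO livers had 67.3% of the WT mean. The log2 fold change, KO over WT, was -0.58 (SE 0.08, 95% CI -0.75 to -0.40; limma adjusted p = 0.0222 over all genes tested). By exact permutation over libraries, two-sided, p was 0.00794, the lowest value possible with groups of 5. Of all genes tested, 0.0645% passed an adjusted p of 0.05, and 0.0323% did so with a lower level in KO.

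mt-Rnr2, the 16S rRNA of the large subunit, had a similar pattern of values without passing the threshold. KO replicates 1 to 5 had 1288.47, 1324.79, 1497.56, 1317.10 and 1477.52 FPKM, against 1907.06, 1586.82, 2011.01, 1929.13 and 2123.74 FPKM in WT replicates 1 to 5. These ranges did not overlap either, but WT replicate 2 lay only a little above the highest KO library. Means were 1381 ± 98.4 FPKM in KO and 1912 ± 200 FPKM in WT (SD, n = 5 each), or 72.2% of the WT mean. The log2 fold change was -0.46 (SE 0.08, 95% CI -0.64 to -0.29; limma adjusted p = 0.0706, exact permutation p = 0.00794). Among all genes tested, 2.21% had separate ranges with the lower values in KO.

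**Figure D1:**
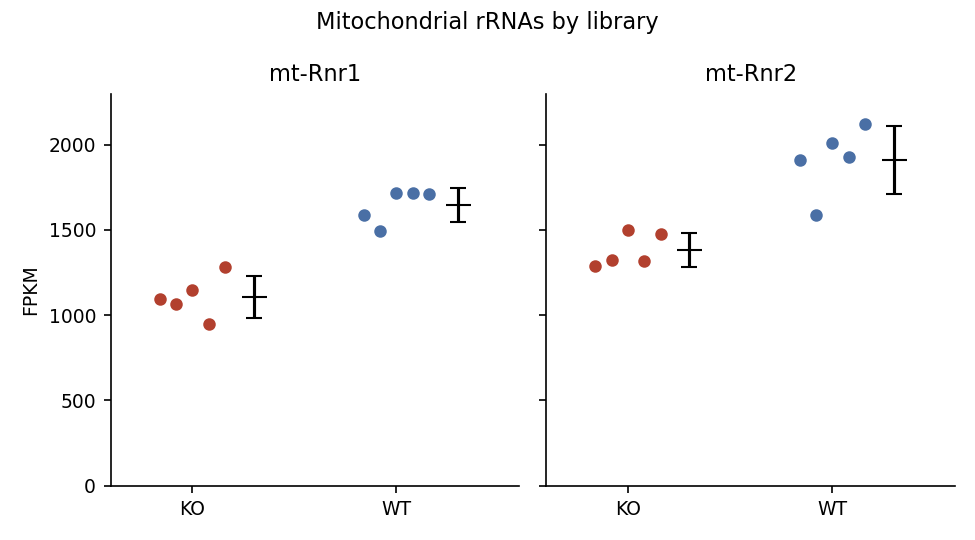
FPKM of mt-Rnr1 and mt-Rnr2 in each library, with KO left of WT in each panel; points are libraries, and bars are the mean and SD of 5 libraries. The 5 KO libraries lie between 948.65 and 1282.15 FPKM for mt-Rnr1 and between 1288.47 and 1497.56 FPKM for mt-Rnr2, below every WT library in both panels.

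The call for mt-Rnr1 depended on single libraries, while its direction did not. Without KO replicate 3 the log2 fold change was -0.59 (limma adjusted p = 0.0596), and without KO replicate 2 it was -0.56 (limma adjusted p = 0.0770). Leaving out each library in turn gave -0.63 to -0.52, with limma adjusted p from 0.00846 to 0.0971, and the call was kept only without KO replicate 4, KO replicate 5 or WT replicate 2 and lost without any of the other 7 libraries. It was also lost with median-of-ratios scaling (limma adjusted p = 0.0548), with no filter on low values (0.0602) and with no trend and no robust prior (0.0614). For mt-Rnr2 the same refits gave -0.53 to -0.43, with limma adjusted p from 0.0104 without WT replicate 2 to 0.152 without KO replicate 2; without KO replicate 3 it was -0.49 (limma adjusted p = 0.117). Counting error was small beside the spread: mt-Rnr1 rested on about 17600 to 29400 fragments per library, a relative error of at most 0.753%.

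The balance of the rRNAs with each other and with mRNA of the same genome can be read within a library. The ratio of mt-Rnr1 to mt-Rnr2 was 0.801 ± 0.0602 in KO and 0.865 ± 0.0527 in WT (SD, n = 5 each), with overlapping ranges of 0.72 to 0.868 in KO and 0.806 to 0.942 in WT. Set against mt-Co1, the mRNA of cytochrome oxidase subunit 1, mt-Rnr1 stood at 5.43% to 6.57% in KO and 7.44% to 10.13% in WT, without overlap. For mt-Rnr2 the share was 6.60% to 8.17% in KO and 7.91% to 11.92% in WT, and the ranges met at WT replicate 2. mt-Co1 was the mRNA closest to equal between the genotypes. Against the sum of the 9 mitochondrial mRNAs that passed the filter, both rRNAs together stood at 2.69% to 3.42% in KO and 3.05% to 4.61% in WT. WT replicate 2 lay inside the KO range. That sum leaves out mt-Co2, mt-Co3, mt-Atp6 and mt-Atp8, so it is not the whole of the mitochondrial mRNA. These ratios are descriptions and were not tested.

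The mRNAs of the mitochondrial genome ranged from values like those of the rRNAs to equality between the genotypes. Of 13 mRNAs, 9 passed the filter, and none passed the test. Of these 9, 2 had an unadjusted limma p below 0.05, both lower in KO, against 9.07% of all genes lower and 2.69% higher. Means of mt-Co1 were 18382 FPKM in KO and 18315 FPKM in WT, 100.4% of WT. The KO mean was 98.2% of WT for mt-Nd4l, 94.4% for mt-Cytb and 92.8% for mt-Nd1. It was 76.6% for mt-Nd2 (limma adjusted p = 0.1198) and 74.5% for mt-Nd6 (limma adjusted p = 0.0706), both subunits of complex I and both with separate ranges. mt-Nd6 is the 1 mRNA on the other strand and had 78.6 ± 7.50 FPKM in KO and 105 ± 5.40 FPKM in WT. No comparison was possible for mt-Co2, mt-Atp6 and mt-Atp8, listed at 0 throughout, nor for mt-Co3, which reached at most 0.30 FPKM. Reads of the rRNAs that also match nuclear copies of mitochondrial DNA cannot be told apart in these values.

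Base composition moved with these differences. Among the 10 tested transcripts on the strand of the rRNAs, the log2 fold change was lower where the adenine share was higher (Spearman's rho -0.939 across genes, which share the same 10 libraries). mt-Co1, at 29.5% A, and mt-Nd4l, at 30%, stood nearest to 100% of WT, and mt-Nd2, at 36.9%, stood next to the rRNAs. mt-Nd6 was the exception, with 22.2% A and 43.7% T. Leaving out KO replicate 2 gave the same rho of -0.939.

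**Figure D2:**
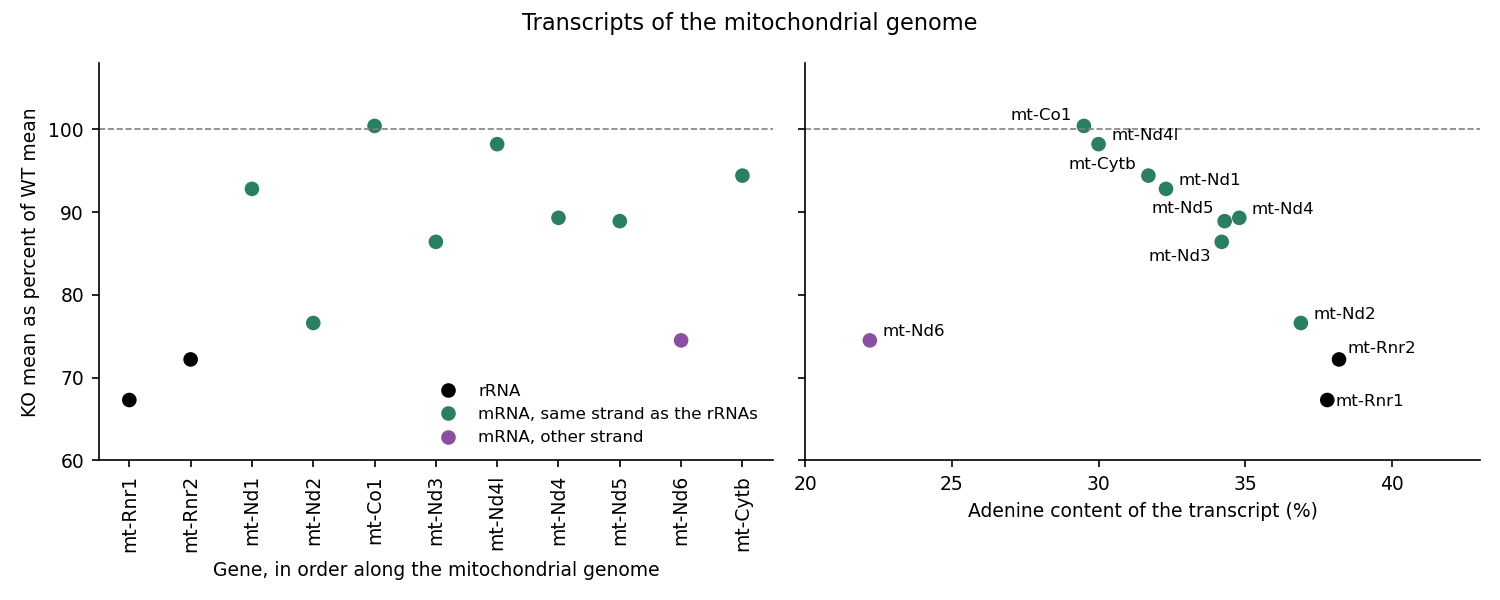
KO mean as percent of the WT mean for 11 transcripts of the mitochondrial genome, in genome order on the left and against the adenine content of the transcript in percent on the right; the dashed line marks 100%. The rRNAs, at 67.3% and 72.2%, are lowest and richest in adenine, and mt-Nd6, on the other strand, is low at 22.2% adenine.

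The same relation was present, more weakly, outside the mitochondrial genome. Over 12351 nuclear genes with an annotated transcript, rho between adenine share and log2 fold change was -0.203. Across the 77 ribosomal proteins it was -0.355. The median log2 fold change was -0.01 for genes with at most 22% A, -0.04 for those between 24% and 26%, and -0.12 for those between 32% and 34%. In the 151 genes above 34%, the bin nearest the rRNAs, it was -0.10, so the fall did not continue there. KO replicate 2 stood apart here, with a slope of -0.23 log2 units per 10 percentage points of A, against -0.08 to 0.07 in the other 9 libraries. Without it the nuclear rho was -0.077, and that across the 77 ribosomal proteins was -0.275. After a correction of every library for adenine content, added after seeing the data, mt-Rnr1 was at a log2 fold change of -0.42 (limma adjusted p = 0.174) and mt-Rnr2 at -0.31 (limma adjusted p = 0.241). A correction for GC content gave -0.43 (limma adjusted p = 0.172) and -0.32 (limma adjusted p = 0.245). Both corrections also centre each library, and with the adenine correction the median of all genes moved from -0.05 to -0.0014. Median-of-ratios scaling, which uses no composition, gave -0.52 for mt-Rnr1 and -0.41 for mt-Rnr2. Only 24 nuclear genes were as rich in adenine as mt-Rnr1, so the adenine correction is thinly based at that end. The part of base composition in the rRNA result beyond these values was not tested.

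Nuclear genes of the ribosomal proteins were close to equal between the genotypes. None of the 48 large-subunit and none of the 29 small-subunit proteins passed the test (smallest limma adjusted p 0.143 and 0.228). At an unadjusted limma p below 0.05 there were 5 large-subunit proteins (10.4%) and 2 small-subunit proteins (6.90%), all lower in KO and none higher. The background was 9.07% of all genes lower and 2.69% higher, so the shares lie near it. With median-of-ratios scaling the large subunit had 2 higher and 3 lower and the small subunit 1 lower, against 5.4% of all genes higher and 4.83% lower. The adenine correction, described above, gave 1 higher and 2 lower in the large and 0 in the small subunit. All genes had 5.16% higher and 5.03% lower with it. Median log2 fold changes were -0.07 for the large and -0.02 for the small subunit, beside -0.05 for all genes tested. In the large subunit 34 of 48 proteins, or 70.8%, and in the small subunit 16 of 29, or 55.2%, had a log2 fold change below 0, against 65.1% of all genes.

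That split depends on the scaling. With median-of-ratios scaling, 54.2% of large-subunit and 27.6% of small-subunit proteins were below 0, against 50.3% of all genes, and the medians were -0.01 for the large and 0.03 for the small subunit. With the adenine correction the shares were 52.1% and 34.5%, against 50.6% of all genes. The interval of the log2 fold change lay within 0.5 of 0 on either side for 76 of the 77 proteins. Mrpl19, the exception, had the widest interval, -0.78 to 0.12. The limit of 0.5 is wider than the mt-Rnr2 estimate of -0.46. An interval within it can still exclude 0, as that of Mrpl50 did (-0.48 to -0.15). Summed over the large-subunit proteins, levels were 1177 to 1346 FPKM in KO and 1271 to 1372 FPKM in WT, and over the small-subunit proteins 634.7 to 702.8 FPKM in KO and 644.9 to 697.0 FPKM in WT.

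**Figure D3:**
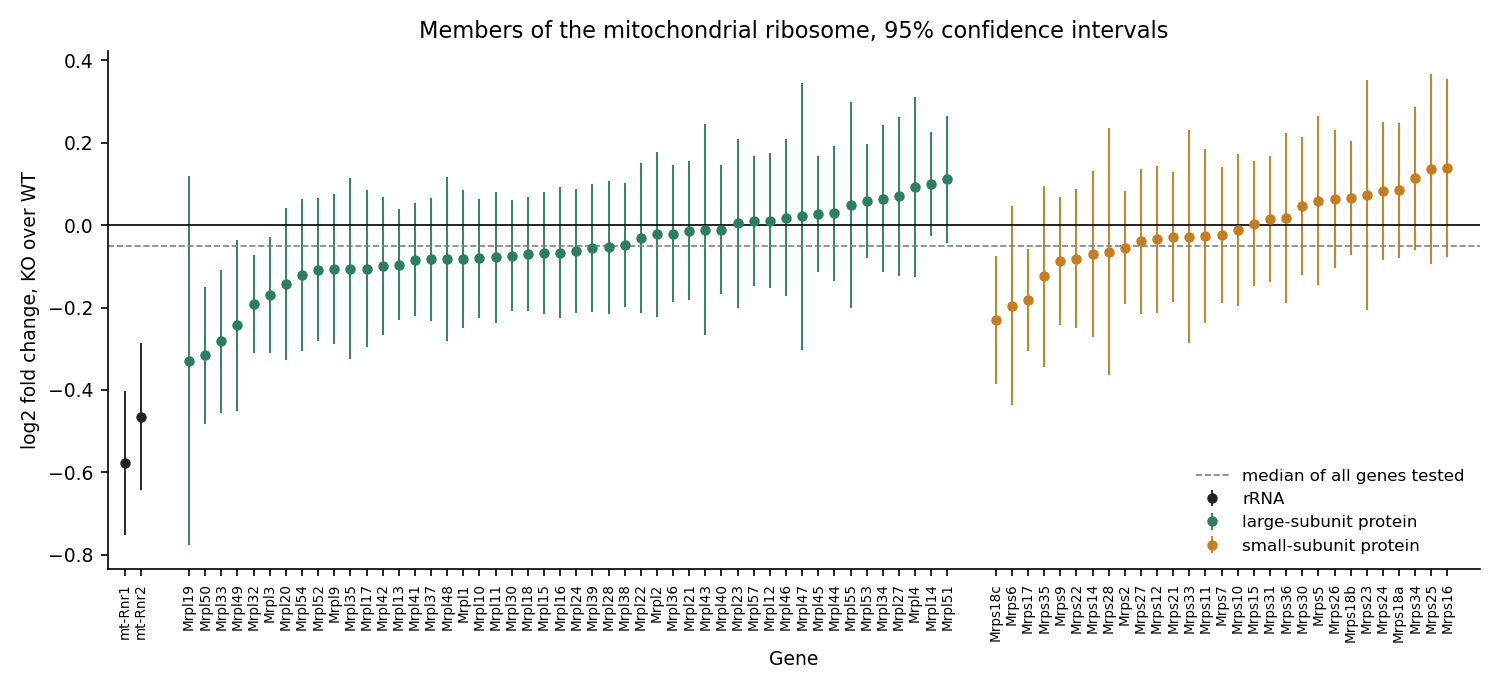
Log2 fold change of KO over WT with its 95% confidence interval for 2 rRNAs, 48 large-subunit and 29 small-subunit proteins, each group sorted by value; the dashed line is the median of all genes tested, -0.05. The rRNAs, at -0.58 and -0.46, lie below every protein, whose values run from -0.33 to 0.14.

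Symbols do not follow the structure of the particle in every case. Mrps18a and Mrps30 sit in the large subunit in structures of the mammalian ribosome, and Mrps36 belongs to the 2-oxoglutarate dehydrogenase complex. Their log2 fold changes were 0.09, 0.05 and 0.02. With these moved or left out, 34 of 50 large-subunit and 16 of 26 small-subunit proteins were below 0, with medians of -0.06 and -0.03.

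Promoter sequences are shown for 3 large-subunit genes whose levels follow, because NRF1, ETS-family factors such as GABP, and YY1 are known regulators of nuclear genes for mitochondrial proteins. RefSeq promoters (GRCm38.p6), 250 bases before to 50 bases after the start, were matched for 68 of the 77 proteins. Each stretch is the 100 bases before the RefSeq start, 5′ to 3′ on the gene's strand, with searched motifs in capitals. Mrpl50 is at chr4:49521084-49521183 on the minus strand, Mrpl32 at chr13:14613038-14613137 on the minus strand and Mrpl3 at chr9:105053168-105053267 on the plus strand.
Mrpl50: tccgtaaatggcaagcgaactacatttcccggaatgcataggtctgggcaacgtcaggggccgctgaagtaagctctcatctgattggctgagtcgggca
Mrpl32: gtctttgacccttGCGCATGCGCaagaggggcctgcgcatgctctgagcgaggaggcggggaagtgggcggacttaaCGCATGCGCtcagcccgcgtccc
Mrpl3: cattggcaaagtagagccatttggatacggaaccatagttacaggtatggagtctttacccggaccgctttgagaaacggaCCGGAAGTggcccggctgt
Mrpl3 holds the ETS motif CCGGAAGT, and Mrpl32 holds 3 matches of the NRF1 motif GCGCATGCG, 2 of them on opposite strands of the first capital stretch. Mrpl50 holds no searched motif in its whole window of 300 bases. Searched on both strands, CCGGAAGT was in 16.2% of the 68 promoters, against 8.51% of the 9210 promoters of genes tested and 4% of all promoters in the table. GCGCATGCG was in 10.3% of the members, 3.81% of genes tested and 1.81% of all, and the YY1 motif AAGATGGCG in 11.8% of the members, 3.38% of genes tested and 1.49% of all. Matches of different motifs overlapped in 0 of the 68 promoters. A match describes these letters alone.

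Of the large-subunit proteins, those of lowest p were Mrpl50, Mrpl33, Mrpl32, Mrpl3 and Mrpl49. Mrpl50 (chr4:49512596-49521093, minus strand) encodes a protein found in mitochondrial ribosomes and not in bacterial ones. It had 15.00, 15.88, 17.95, 16.49 and 17.96 FPKM in KO replicates 1 to 5, against 18.74, 22.47, 20.25, 20.01 and 22.85 FPKM in WT replicates 1 to 5. All KO libraries lay below all WT libraries, and the log2 fold change was -0.32 (SE 0.08, limma adjusted p = 0.143).

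Mrpl32 (chr13:14608184-14613165, minus strand) encodes a protein that is matured by the m-AAA protease inside mitochondria before it joins the ribosome. Its level was 21.67, 21.10, 21.14, 22.78 and 21.99 FPKM in KO, against 23.78, 24.66, 26.34, 25.43 and 24.25 FPKM in WT, replicates 1 to 5 in each. The groups did not overlap, and the spread was narrow in both, but the log2 fold change of -0.19 (SE 0.06) did not pass (limma adjusted p = 0.200). Afg3l2, a subunit of that protease, averaged 26.2 ± 1.01 FPKM in KO and 26.6 ± 0.727 FPKM in WT (SD, n = 5 each).

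Mrpl3 (chr9:105053239-105079888, plus strand), a protein with a bacterial counterpart that reaches toward the peptidyl transferase centre, had 11.00, 11.27, 10.33, 11.07 and 10.90 FPKM in KO, against 12.55, 13.58, 11.54, 11.77 and 12.36 FPKM in WT. These ranges were again separate, at a log2 fold change of -0.17 (SE 0.06, limma adjusted p = 0.313). Mrpl33 (chr5:31596935-31664384, plus strand), a small protein with a bacterial counterpart, had 28.98, 35.02, 32.30, 35.70 and 30.87 FPKM in KO, against 34.62, 43.09, 37.22, 42.57 and 41.11 FPKM in WT. Only WT replicate 1 fell within the KO range, and the log2 fold change was -0.28 (SE 0.08, limma adjusted p = 0.198). Mrpl49, a protein without a bacterial counterpart, averaged 13.6 ± 1.83 FPKM in KO and 16.1 ± 1.54 FPKM in WT (limma adjusted p = 0.324), with overlap.

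In the small subunit the lowest p belonged to Mrps18c, Mrps17, Mrps6, Mrps34 and Mrps16, each with a bacterial counterpart except Mrps34. Mrps18c (chr5:100798627-100804471, plus strand), 1 of 3 genes for proteins of the S18 family, had 27.78, 26.98, 25.65, 25.10 and 29.20 FPKM in KO, against 29.26, 35.86, 33.08, 29.30 and 31.26 FPKM in WT. KO replicate 5 lay just under WT replicates 1 and 4, and the ranges were separate by that margin (log2 fold change -0.23, SE 0.07, limma adjusted p = 0.228). Its paralogs Mrps18a and Mrps18b had log2 fold changes of 0.09 and 0.07.

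Mrps17 (chr5:129715497-129722556, plus strand) had 28.90, 31.65, 29.41, 27.78 and 30.53 FPKM in KO, against 33.25, 34.43, 34.48, 31.57 and 34.70 FPKM in WT. The groups overlapped only between KO replicate 2 and WT replicate 4 (log2 fold change -0.18, SE 0.06, limma adjusted p = 0.230). Mrps6 averaged 9.02 ± 1.72 FPKM in KO and 10.3 ± 0.556 FPKM in WT (limma adjusted p = 0.514). On the other side of 0, Mrps16 ran from 28.64 to 41.49 FPKM in KO and from 27.83 to 34.85 FPKM in WT (limma adjusted p = 0.617). Mrps34 averaged 54.8 ± 6.86 FPKM in KO and 50.4 ± 2.15 FPKM in WT (SD, n = 5 each; limma adjusted p = 0.616).

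Several of these proteins moved nearer to 0 under the composition corrections, which also centre each library. They did so too under median-of-ratios scaling, which uses no composition. That scaling gave -0.14 for Mrpl32, -0.12 for Mrpl3, -0.18 for Mrps18c and -0.13 for Mrps17. With the adenine correction the log2 fold change was -0.11 for Mrpl32, -0.10 for Mrpl3, -0.14 for Mrps18c and -0.11 for Mrps17. With the GC correction it was -0.09 for Mrpl32, -0.09 for Mrpl3, -0.15 for Mrps18c and -0.10 for Mrps17. Mrpl50 stood at -0.23 and -0.22 and Mrpl33 at -0.24 and -0.22 with the adenine and GC corrections. With median-of-ratios scaling Mrpl50 was at -0.26 and Mrpl33 at -0.23. The part of centring in these moves was not tested.

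Separate ranges were found for 4 of the 77 proteins, 3 of the large and 1 of the small subunit, all lower in KO; among all genes tested 2.21% were lower and 0.581% higher in this way.

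**Figure D4:**
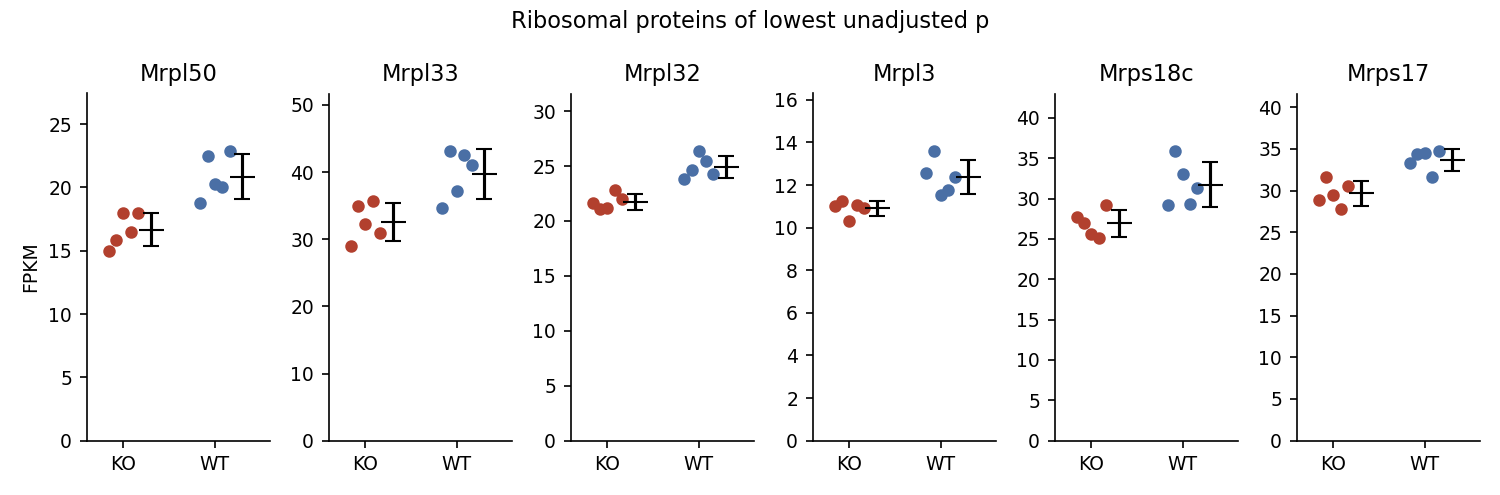
FPKM of 6 ribosomal protein genes in each library, with KO left of WT in each panel; points are libraries, and bars are the mean and SD of 5 libraries. Mrpl50, Mrpl32, Mrpl3 and Mrps18c have every KO library below every WT library, while Mrpl33 and Mrps17 overlap; none of the 6 passed the test.

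Levels differed far more between the proteins than between the genotypes. Means over both groups ran from 4.38 to 103.3 FPKM in the large subunit and from 9.36 to 59.9 FPKM in the small subunit, with medians of 23.1 and 21.7 FPKM. At the top of the large subunit, Mrpl52 averaged 99.6 ± 9.59 FPKM in KO and 107 ± 9.16 FPKM in WT, followed by Mrpl17 with 72.7 ± 6.98 FPKM in KO and 78.3 ± 8.55 FPKM in WT. Mrpl12, the stalk protein that binds elongation factors, averaged 56.5 ± 6.34 FPKM in KO and 55.9 ± 2.41 FPKM in WT. The lowest large-subunit levels were those of Mrpl19, at 3.84 ± 1.12 FPKM in KO and 4.91 ± 1.31 FPKM in WT, and of the stalk-base protein Mrpl11, at 4.45 ± 0.305 FPKM in KO and 4.72 ± 0.0942 FPKM in WT. Libraries of Mrpl19 and Mrpl11 overlapped in level, and so did those of Mrpl17 and Mrpl12 through KO replicates 1 and 5, whereas every library of Mrpl52 lay above every library of Mrpl17.

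Mrps21 led the small subunit, with 59.4 ± 5.91 FPKM in KO and 60.4 ± 3.08 FPKM in WT, followed by Mrps34, whose libraries overlapped those of Mrps21 in KO but not in WT, and then by Mrps24, which had 35.3 ± 3.38 FPKM in KO and 33.3 ± 2.53 FPKM in WT. Mrps25, at 9.87 ± 1.73 FPKM in KO and 8.86 ± 0.629 FPKM in WT, and Mrps11, at 9.53 ± 1.25 FPKM in KO and 9.70 ± 0.955 FPKM in WT, were lowest by the mean over both groups, and their libraries overlapped. In KO alone Mrps6 was lower, at 9.02 FPKM. The median coefficient of variation was 9.20% in KO and 7.19% in WT for the large subunit, and 10.2% in KO and 8.37% in WT for the small subunit. Exons of 32 of the 79 members overlap another gene, 6 of them over at least 30% of their exon bases. Mrps25 shares 69.8% with Nr2c2, Mrps34 63.4% with Mapk8ip3 and Mrpl19 36% with Gcfc2, each on the opposite strand. On its own strand, Mrps34 also shares 37% with Nme3, and Mrpl53 shares 88% with Gm42688. Below 30%, Mrps18c shares 23.2% with Gm43511 and Mrps6 19.9% with Gm49711, also on the same strand. Strand use in counting is not stated, and reads from the shared stretches cannot be told apart.

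Other genes of the pathway gave no call, and their counts stand beside 65.1% of all genes below 0, 9.07% lower and 2.69% higher at an unadjusted p below 0.05, and a median of -0.05. Of 5 ribosomal proteins that carry other names, 3 were above and 2 below 0 in log2 fold change. Chchd1, of the small subunit, averaged 19.2 ± 0.784 FPKM in KO and 22.5 ± 2.72 FPKM in WT (limma adjusted p = 0.311), and Dap3, a GTP-binding protein of the small subunit, 23.0 ± 0.393 FPKM in KO and 23.3 ± 0.983 FPKM in WT. Among 31 genes of ribosome assembly and rRNA modification, 12 were above and 19 below 0, with a median of -0.02 and 0 calls by limma (1 at an unadjusted p below 0.05, lower in KO). The assembly GTPase gene Gtpbp10 had the lowest p there, at 5.75 ± 0.455 FPKM in KO and 6.51 ± 0.268 FPKM in WT (limma adjusted p = 0.410), and Mterf4, which recruits an rRNA methyltransferase to the large subunit, was at 8.25 ± 0.915 FPKM in KO and 9.50 ± 1.11 FPKM in WT (limma adjusted p = 0.450).

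Transcription, RNA processing and mitochondrial DNA maintenance genes were below 0 in 16 of 21 cases, with a median of -0.10, against 65.1% and -0.05 for all genes. There were 0 calls by limma and 3 genes at an unadjusted p below 0.05, all lower in KO, as were 9.07% of all genes. Tfb2m, the factor that opens mitochondrial promoters for the RNA polymerase, had 14.26, 13.22, 12.59, 12.44 and 12.70 FPKM in KO, against 15.50, 15.86, 15.60, 15.69 and 14.81 FPKM in WT. Its KO libraries lay below all WT libraries (log2 fold change -0.24, SE 0.06, limma adjusted p = 0.157). Mterf1a, of the termination factor family, averaged 1.24 ± 0.194 FPKM in KO and 1.62 ± 0.197 FPKM in WT (limma adjusted p = 0.319). The polymerase gene Polrmt averaged 9.96 ± 1.96 FPKM in KO and 8.92 ± 1.04 FPKM in WT, and Tfam, which packages mitochondrial DNA, 24.6 ± 2.88 FPKM in KO and 26.7 ± 3.44 FPKM in WT.

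Of 15 translation factor genes, 5 were above and 10 below 0, with 0 calls by limma and 1 at an unadjusted p below 0.05. This was Mtif2, the initiation factor that brings the initiator tRNA to the small subunit, with 13.13, 13.65, 12.19, 12.84 and 13.62 FPKM in KO, against 15.52, 16.68, 15.59, 18.38 and 15.53 FPKM in WT. The groups were well separated, at a log2 fold change of -0.31 (SE 0.07, limma adjusted p = 0.130). Mtrf1, of the release factor family, averaged 3.77 ± 0.228 FPKM in KO and 4.27 ± 0.238 FPKM in WT (limma adjusted p = 0.436).

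Regulators of mitochondrial biogenesis went both ways, with 3 of 8 above and 5 below 0 and 0 calls by limma (1 higher and 3 lower at an unadjusted p below 0.05, against 2.69% and 9.07% of all genes). Gabpa, the DNA-binding subunit of GABP, averaged 10.7 ± 0.981 FPKM in KO and 12.8 ± 0.932 FPKM in WT (limma adjusted p = 0.233). The coactivator gene Ppargc1a averaged 5.40 ± 1.43 FPKM in KO and 3.76 ± 0.569 FPKM in WT (limma adjusted p = 0.285), and Nrf1 4.68 ± 0.539 FPKM in KO and 4.64 ± 0.320 FPKM in WT.

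Mitochondrial content itself was not measured. Levels of mRNA were compared for 15 nuclear genes of mitochondrial proteins, such as Cs, Vdac1 and Tomm20. Their summed level was 1957 to 2100 FPKM in KO and 2002 to 2164 FPKM in WT, 4 were above and 11 below 0 in log2 fold change, and 0 passed the limma test (0 at an unadjusted p below 0.05; lowest p at Hspd1, with 226 ± 12.0 FPKM in KO and 243 ± 7.53 FPKM in WT). Hepatocyte markers were above 0 in 8 of 8 cases, with a median log2 fold change of 0.13 and 2 higher at an unadjusted p below 0.05, against 2.69% of all genes. Stellate cell and fibroblast markers were below 0 in 7 of 8 cases, and the medians were -0.24 for the 6 lymphocyte and -0.29 for the 4 neutrophil markers that passed the filter. Levels were low there, with sums of at most 15.46 FPKM for lymphocyte and 27.36 FPKM for neutrophil markers. Sinusoidal endothelial markers were above 0 in 3 and below 0 in 5 cases, with a median of -0.02. Medians were -0.02 for erythroid and -0.05 for cholangiocyte markers. Outside the hepatocyte list, no marker had an unadjusted limma p below 0.05. Kupffer cell and macrophage markers were below 0 in 7 of 8 cases, with sums of 197.1 to 300.1 FPKM in KO and 229.5 to 321.2 FPKM in WT. The part of cell composition in the rRNA result was not tested, and in bulk tissue fewer cells of a type and less RNA per cell cannot be told apart. Cytosolic ribosomal protein genes, chosen by symbol, were below 0 in 66 of 79 cases, against 65.1% of all genes, with a median of -0.04 and 0 calls by limma. At an unadjusted p below 0.05 there were 2, both lower in KO, against 9.07% of all genes.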

How the data were processed

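The authors deposited 1 table of FPKM for 47729 genes in 10 libraries. Tools named in the submitters' processing notes are RSEM, STAR, DESeq, DESeq2 and R 4.0.2, with build mm10; roles, annotation and strand setting were not given in the sources used here. Since FPKM keeps no read counts, no count model could be fitted. Values were taken as log2(FPKM + 0.5), which understates changes of low genes, and the 12395 genes averaging 0.5 FPKM or more were tested, KO against WT, with limma 3.58.1 in R 4.3.3 (two-sided, with trend and robust prior; adjustment over all genes tested by Benjamini-Hochberg, threshold 0.05). Permutation tests were exact and two-sided over 252 regroupings. The fit was tested on simulated data. Depth was estimated with GENCODE M21 lengths: 93.2% to 96.2% of low values came within 0.1 of a whole fragment.

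The members and lists were chosen with earlier results of these data known. The genes named are the rRNAs, in each subunit the 5 proteins of lowest p, the 3 of highest and 2 of lowest level, and the 2 of lowest p in each list. Named outside this rule, after their values were seen, are Mrps18a, Mrps18b, Mrps30, Mrps36, Mrpl53 and Afg3l2, with Dap3, Polrmt, Tfam and Nrf1. Mrm2, Mrm3, Rcc1l, Prorp and Twnk were matched under older names, and Mtrfr was not matched. Adenine content is that of the longest GENCODE M21 transcript, and the correction subtracted from each library a smooth curve of its deviations on that content. The NRF1 and YY1 motifs were first searched in longer forms, which gave lower shares in every set. Python 3.11.15 with matplotlib 3.10.9 drew the plots.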

Additional observations from a re-analysis of the deposited data

Results flagged for a closer look

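Among 42 groups of 5 libraries, KO and WT for each of 21 named members, 1 had a library far from the others. Mrps16 in WT replicate 3 was at 34.85 FPKM, away from the other 4 WT libraries. Chance gives about 1 such group in 20.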

How the results depend on the processing

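Refits at 27 other settings gave no call for any ribosomal protein of either subunit, and mt-Rnr1 and mt-Rnr2 stayed lower in KO in all of them. mt-Rnr1 lost its call with no filter on low values (log2 fold change -0.58, limma adjusted p = 0.0602), with median-of-ratios scaling (-0.52, adjusted p = 0.0548), with no trend and no robust prior (-0.58, adjusted p = 0.0614), and with the adenine and GC corrections (-0.42 and -0.43), which were added after seeing the data. With the replicate number as a block it was at -0.58 and not called (limma adjusted p = 0.0634). Correlations of deviations between KO and WT libraries of the same number were -0.025 to 0.204. Of 5 KO libraries, 3 were closest to their own number. These values do not settle whether the numbers pair the samples. Without 1 library mt-Rnr1 ranged from -0.63 to -0.52. mt-Rnr2 was called with array weights (-0.48, adjusted p = 0.0418), at a threshold of 0.1 (-0.46) and without WT replicate 2, with -0.53 to -0.43 without 1 library.

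Over all genes tested, 8 passed, against 5 with no filter, 5 with no trend and no robust prior, 18 with array weights, 5 with the replicate block, 30 at a threshold of 0.1, 4 without Etnppl, and 4 to 18 without 1 library, 18 being without WT replicate 2. Proteins with changes near 0 changed sign: Mrps21 with median-of-ratios scaling (0.0265) and the adenine correction (0.0331), and Mrps11 with median-of-ratios scaling (0.0264), quantile normalization (0.0254) and the adenine correction (0.0224). Without 1 library Mrps21 ranged from -0.0797 to 0.007, Mrps11 from -0.0932 to 0.0276 and Mrpl12 from -0.0504 to 0.0496. The causes were not tested.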

Other observations

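Outside the rule for named genes, and chosen after its values were seen, Mrps9 was nearly constant across the KO livers, at 10.94, 11.22, 11.10, 11.07 and 11.04 FPKM, against 11.14, 13.65, 12.22, 10.77 and 11.42 FPKM in WT. Mrps23 was high in KO replicate 3, the library with pancreas transcripts, at 25.52 FPKM, against 13.77 to 19.67 FPKM in the other 4 KO libraries and 15.51 to 18.44 FPKM in WT. A link between this value and the pancreas transcripts was not tested.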
